A study of Homo sapiens with 12 samples.

Results

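The regions described here are stretches of hg19 at which all 3 odd-probe libraries of a ChIRP-seq experiment had a peak and none of the 3 even-probe and 3 lacZ-probe libraries did. Peaks of the 9 lists that shared at least 1 base on chromosomes 1 to 22 and X were merged, which gave 357901 regions. Of these, 51989 had a peak in 3 of 3 odd lists and in no other list. They are called odd-only regions below. That is 14.5% of all merged regions. The same rule turned to the other sets gave 61807 even-only regions (17.3%) and 21146 lacZ-only regions (5.91%). The regions were chosen by the presence or absence of a peak in each list, so the counts and the strength of the odd peaks in them are given as a description, without a test.

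Chromatin isolation by RNA purification (ChIRP) pulls down crosslinked chromatin through tagged oligonucleotides complementary to an RNA, and the recovered DNA is sequenced. The oligonucleotides are tiled along the RNA and split into an odd and an even pool. DNA bound by the RNA itself should come down with both pools, while DNA that pairs with, or otherwise sticks to, one oligonucleotide should come down with the pool that holds it. Regions seen with a single pool are therefore usually set aside in this assay, and the lacZ pool, which is directed at a bacterial RNA, serves as a further control.

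All groups were Jurkat cells, an established human T-lymphocyte leukaemia line, stably expressing SLEAR, a long non-coding RNA. The groups were odd probes (3 samples), even probes (3 samples), lacZ probes (3 samples) and input (3 samples, not analysed here). All lists therefore come from a single line under stable expression of the RNA, the lacZ and even lists included. Nothing in the labels says that the 3 samples of a group came from separate cultures, so the spread between them may be technical. Peak lists hold no expression values, so the cell type could not be checked against marker genes. Without an hg19 genome or annotation, regions are identified by chromosome, start and end.

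On these chromosomes the odd lists held 66336, 105957 and 117145 peaks, the even lists 90179 to 124191 and the lacZ lists 26460 to 90804. The number of reads behind the lists is unknown, and the deposited pileup, the height of fragment coverage at the summit, is in whole numbers with no scaling to depth stated. Pileups are therefore compared between regions of one list, by their percentile within the list, where 100 marks the highest peak.

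Odd-only regions took in most peaks of the shortest odd list and fewer of the longer ones. In odd replicate 1, 52099 peaks (78.5%) lay in an odd-only region, in replicate 2 52155 (49.2%) and in replicate 3 52125 (44.5%). By bases the shares were 80.7%, 59.8% and 55.6%. The mean was 57.4% ± 18.4 of peaks in the odd lists, 61.5% ± 10.1 in the even lists for even-only regions and 49.6% ± 28.6 in the lacZ lists for lacZ-only regions (SD, n = 3 each). These ranges overlapped among the 3 sets.

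Of the 58510 regions with a peak in all 3 odd lists, 88.9% had no peak in another list. A further 4182 had an even but no lacZ peak, 2086 a lacZ but no even peak, and 253 had both. Regions with fewer odd lists were also mostly clear of the other sets, at 91.5% of 32874 regions with 2 odd lists and 92.6% of 47534 with 1. Absence from the even and lacZ lists was thus not a property of the recurrent odd regions alone.

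Recurrence across odd lists went with strength. In odd replicate 1 the median pileup of odd-only regions was 28, against 14 in regions of 2 odd lists and 11 in regions of 1 odd list that were also clear of the other sets. In odd replicate 2 these medians were 56, 23 and 16, and in odd replicate 3 they were 36, 15 and 10. The order was the same in all 3 lists. Median region lengths followed it, at 583, 336 and 261 bases for 3, 2 and 1 odd lists. A region is the union of its peaks, so more lists lengthen it in part by construction. Single peaks had median lengths of 424, 289 and 284 bases in replicate 1. They were 501, 282 and 251 bases in replicate 2 and 522, 299 and 263 in replicate 3.

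Each odd list was cut into 10 bins by pileup percentile, of unequal size where peaks tie (5936 to 7388 peaks in replicate 1, 9518 to 11646 in replicate 2 and 9436 to 14026 in replicate 3), and the share of peaks that belonged to odd-only regions differed between them. In the lowest bin it was 44.0%, 4.93% and 2.63% in replicates 1, 2 and 3. It reached 87.8%, 88.2% and 88.2% in the ninth bin. In the highest bin it was lower again in each list, at 79.5%, 82.5% and 83.3%. Weak peaks of replicates 2 and 3 thus mostly fell outside the odd-only regions, and fewer of the very strongest peaks were inside them than of those just below.

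**Figure D1:**
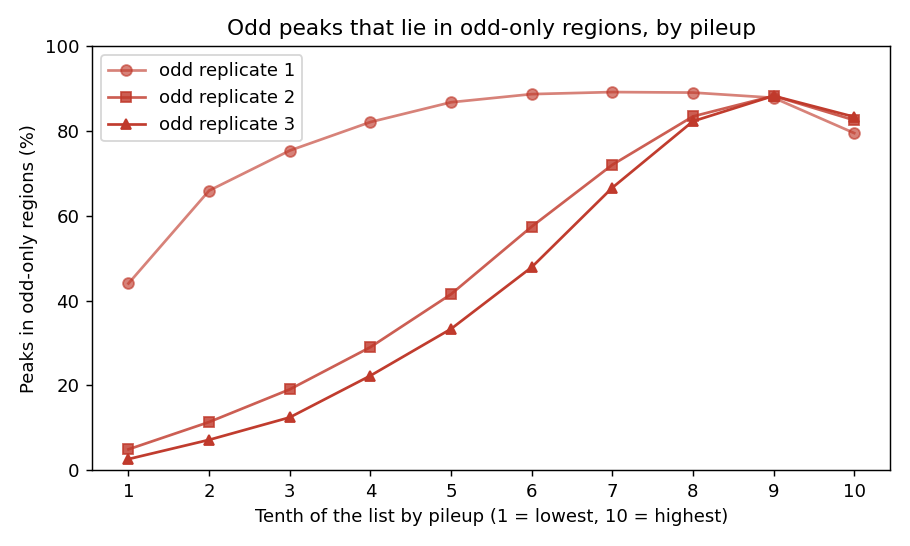
Share of the peaks of each odd list (percent, vertical axis) that lie in odd-only regions, by bin of the list in order of pileup (horizontal axis, 10 bins); each line is 1 odd library. Odd replicate 1 starts at 44.0% and the other 2 libraries at 4.93% and 2.63%, all 3 stand between 87.8% and 88.2% in the ninth bin, and all 3 are lower in the highest bin.

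The even and lacZ sets, each followed in their own lists, were binned in the same way. In the ninth bin 88.1% ± 0.258 of odd peaks lay in odd-only regions, 88.7% ± 0.404 of even peaks in even-only regions and 81.6% ± 8.46 of lacZ peaks in lacZ-only regions. In the highest bin the shares were 81.8% ± 2.02, 84.1% ± 0.938 and 85.6% ± 0.303 (SD, n = 3 each). In the lacZ lists the highest bin was below the ninth in replicate 1 (85.6% against 86.6%) and replicate 3 (85.3% against 86.3%) and above it in replicate 2 (85.9% against 71.8%), so the higher lacZ mean of the highest bin comes from replicate 2.

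Each odd list in turn was left out of the presence rule, and the share of regions with a peak in it was counted. The left-out list still took part in the merging of peaks, so it was not independent of the regions. The regions found again are the 51989 odd-only regions themselves in each case. The shares therefore describe how far the left-out list narrows the rule, and they are no independent check of recurrence. Of 77183 regions with a peak in odd replicates 2 and 3 and in no even or lacZ list, 67.4% had a peak in replicate 1, the shortest odd list. Leaving out replicate 2 gave 94.99% of 54729 regions, and leaving out replicate 3 gave 96.0% of 54141. Where only 1 of the other 2 odd lists had a peak, the left-out list had one in 10.5%, 49.2% and 60.8% of regions. A second odd list therefore went with a higher share in each of the 3 left-out libraries.

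Stronger regions were found again more often. Sorted by pileup in the 2 lists used and cut into 4 groups, the strongest group was found again in 99.7%, 100% and 100% of cases when replicate 1, 2 or 3 was left out. For the weakest group the shares were 24.6%, 82.5% and 86.7%. The mean over the left-out libraries was 86.1% ± 16.3 for odd regions, 88.8% ± 5.93 for even regions in even lists and 82.2% ± 24.4 for lacZ regions in lacZ lists (SD, n = 3 each). The ranges of the 3 sets overlapped, the lacZ control included.

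The absence of even and lacZ peaks was followed in the same way. Regions with a peak in 3 of 3 odd lists that were clear of 5 of the 6 other lists seldom had a peak in the remaining one. With an even list left out, 0.507%, 0.494% and 1.22% of them had a peak in even replicates 1, 2 and 3. With a lacZ list left out, 0.0903%, 1.62% and 0.00769% had one in lacZ replicates 1, 2 and 3. A left-out even list had a peak in 89.0% ± 5.75 of all regions with a peak in both of its sister lists. For a left-out lacZ list the share was 82.4% ± 24.3 (SD, n = 3 each). These regions must have a peak in the sister lists, and those above must have none. The difference between the shares is thus set by how the regions were chosen. The low shares themselves also depend on the required absence from the sister lists, and the left-out list took part in the merging of peaks. No conclusion is drawn from the low shares or from the difference. The highest of the lacZ shares came from replicate 2, the longest lacZ list.

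Odd-only regions were short and of similar length. Their median length was 583 bases, with the middle 80% between 347 and 822 bases, against medians of 590 bases for even-only and 684 for lacZ-only regions. The single peaks had median lengths of 424, 501 and 522 bases in odd replicates 1, 2 and 3. In all, the regions covered 30.8 Mb. Lengths over 500 and up to 1000 bases held 34161 regions (65.7%), and 15077 (29.0%) were over 300 and up to 500 bases long. At the extremes, 1564 regions were no longer than 300 bases, close to the shortest peaks of the 3 odd lists (253, 215 and 226 bases), and 27 were longer than 2000 bases.

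Length went with pileup, with a Spearman correlation of 0.722 over the 51989 regions. This is a description across regions that share the same 3 libraries. Median pileup in odd replicates 1, 2 and 3 was 16, 24 and 17 in regions of up to 300 bases, 37, 76 and 47 in those over 500 and up to 1000 bases, and 114, 222 and 112 in the 27 longest.

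Pileups in the 3 odd libraries ranked the regions alike. As a description over the 51989 regions, Spearman correlations were 0.898 between replicates 1 and 2, 0.894 between 1 and 3 and 0.884 between 2 and 3. The pileup was higher in replicate 2 than in replicate 1 in 97.4% of regions, with a median ratio of 2, and higher in replicate 3 than in replicate 1 in 76.2%, with a median ratio of 1.24. In 66.8% of regions the order was replicate 1, then 3, then 2. With depth unknown, these ratios were not used as a measure of capture.

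Median percentile of pileup was 54.3 in odd replicate 1, 71.2 in replicate 2 and 74.2 in replicate 3, or 66.6 ± 10.7 (SD, n = 3). The median fold enrichment, the authors' value per peak, was 11.1, 21.3 and 18.1. For even-only regions in even lists the percentile was 64.9 ± 5.71, and for lacZ-only regions in lacZ lists 70.8 ± 16.8 (SD, n = 3 each). Percentiles depend on how many weak peaks a list holds, so they are read within a list.

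Summits, which the rule did not use, lay close together. The highest and lowest summit of the 3 odd lists were a median of 43 bases apart, with the middle 50% between 26 and 63 bases. They were within 50 bases in 60.6% of odd-only regions and within 100 bases in 95.1%. In 31 regions all 3 lists placed the summit on the same base, and in 687 (1.32%) the summits were spread over more than 200 bases. The medians were 43 bases in even-only and 46 in lacZ-only regions, close to the odd-only value, also in the lacZ control. The median summit stood at 49.5% of the region's length, and in 64.5% of regions within the middle 20% of it.

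The regions were then divided into 4 equal groups by mean percentile of pileup. In the strongest group of 12998 regions, median pileups in odd replicates 1, 2 and 3 were 74, 164 and 93, and in the weakest group of 12997 they were 15, 26 and 18. Median length was 764 and 435 bases. Summits lay within 50 bases of each other in 67.6% of the strongest and 50.1% of the weakest group. The summit stood in the middle 20% of the region in 89.1% of the strongest and 40.3% of the weakest group. The middle 20% spans more bases in longer regions, so these shares are not independent of length. Nearness to another odd-only region differed little, with a neighbour within 10 kb for 34.3% and 31.0%.

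**Figure D2:**
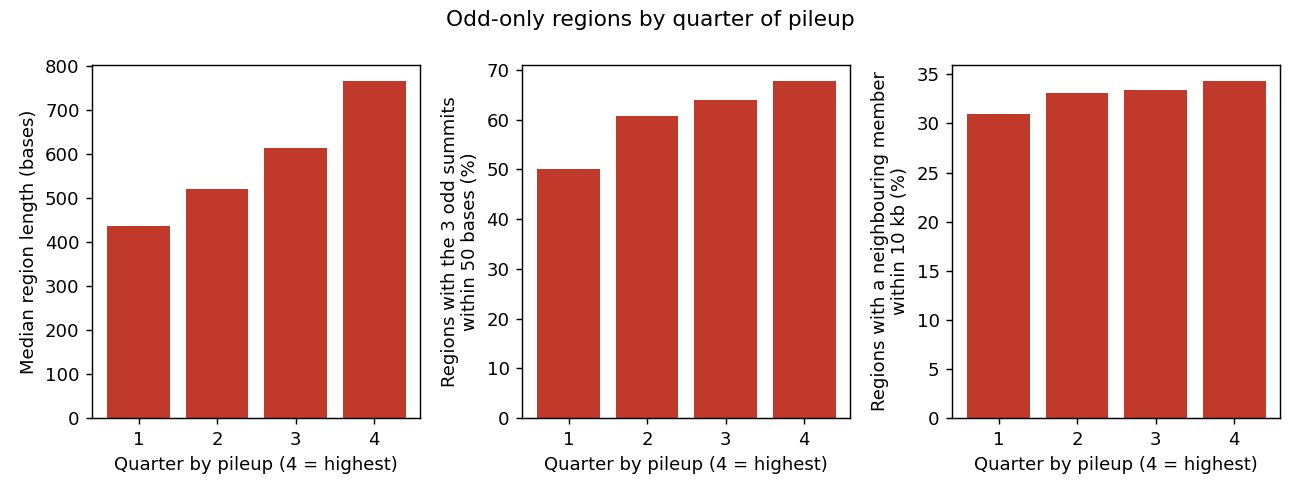
Odd-only regions in 4 equal groups by mean pileup percentile (horizontal axis, 4 is the highest), with the median length in bases, the percent of regions whose 3 odd summits lie within 50 bases, and the percent with another odd-only region within 10 kb. Median length is 764 bases in the strongest group and 435 in the weakest, and nearness to a neighbour stays between 31.0% and 34.3%.

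The 12 strongest odd-only regions by pileup fell into 2 kinds by fold. In 7 the mean percentile of fold was below 90, and in 5 it was above 99. The first, on chromosome 16 from 46404755 to 46405831, had pileups of 9338, 13562 and 9451 fragments in odd replicates 1, 2 and 3. Its fold enrichment was 11.8, 16.5 and 18.97, so that by percentile of fold it ranked only 25778 of the odd-only regions. The 3 summits lay within 7 bases.

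Ranks 2, 3, 4 and 11 lay beside it on chromosome 16, in a stretch that began at 46387096 and ended at 46425035. The region from 46412691 to 46413518 had pileups of 4702, 7168 and 4852, the one from 46423830 to 46425035 had 3527, 5710 and 3593, and the one from 46387096 to 46388133 had 3189, 4610 and 3418. Their mean fold was 15.1 to 20.6. The region from 46399087 to 46400003 had pileups of 731, 1351 and 856 with folds of 1.39, 4.72 and 4.91, and ranked 51941 by fold. A sixth region in the stretch, from 46392802 to 46393898, had odd pileups of 8665, 12646 and 8952 and was no odd-only region, because the 3 lacZ lists also had a peak there, with pileups of 948, 1374 and 658. No even list had a peak in these 6 regions. Fold is a ratio over the caller's background, so that background was high in these regions too. Its source was not tested.

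The stretch stood at the edge of a long gap. No list of any set had a peak on chromosome 16 between 35284269, where the odd-only region before it ended, and 46387096. The 2 other regions below percentile 90 of fold among the strongest 12 were on chromosomes 1 and 5. On chromosome 1 from 567838 to 568340, pileups were 1256, 2297 and 1548 and folds 19.9, 47.2 and 46.0. On chromosome 5 from 49437157 to 49437492, pileups were 845, 1250 and 1049 and folds 19.0, 27.03 and 34.9. Their mean percentiles of fold were 87.2 and 81.9. These folds were above the odd-only medians of 11.1, 21.3 and 18.1 in the same lists. The region on chromosome 5 was 336 bases long, shorter than most odd-only regions. It lay shortly after a stretch of 3.09 Mb without an odd-only region, which ended at 49420637.

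Of the 12 strongest regions, 5 were also among the 12 highest by fold. On chromosome 5 the region from 8079080 to 8080594 had pileups of 648, 1362 and 1217 and a fold of 541 ± 242 (SD, n = 3), the highest by fold of all odd-only regions. On chromosome 10 the region from 92937682 to 92938578 followed, with pileups of 549, 1208 and 652, a fold of 391 ± 162 (SD, n = 3) and summits within 4 bases. Ranked by percentile of fold averaged over the 3 lists, the region on chromosome 21 from 40950265 to 40951224 had rank 3, with pileups of 362, 957 and 452 and a fold of 284 ± 136 (SD, n = 3). By mean fold it stood below the region on chromosome 14 from 19657634, at 357 ± 249, and the one on chromosome 22 from 16182799, at 300.03 ± 180 (SD, n = 3 each). All of these were far above the median pileups of 28, 56 and 36 in the same lists.

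**Figure D3:**
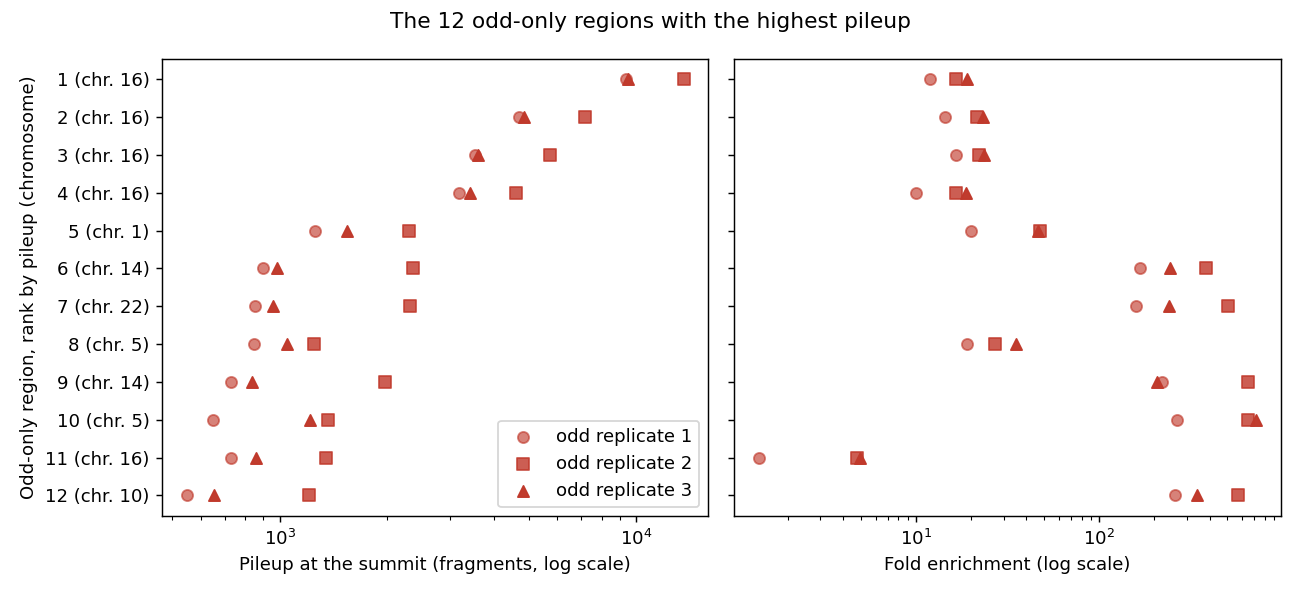
Pileup at the summit in fragments (left) and fold enrichment (right), both on log axes, of the 12 odd-only regions with the highest mean pileup percentile; each row is 1 region, with its chromosome, and each symbol 1 odd library. Of the 5 regions on chromosome 16, 4 lead by pileup and 1 is at rank 11, and all 5 have folds of at most 23.4, while those on chromosomes 10, 14 and 22 and rank 10 on chromosome 5 have folds of at least 159.

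Another 3 regions among the 12 resembled each other in length and pileup. On chromosome 14 the region from 19915058 to 19917827 was 2770 bases long, with pileups of 896, 2359 and 984, and the one from 19657634 to 19660233 was 2600 bases long, with 730, 1977 and 835. On chromosome 22 the region from 16182799 to 16185348 was 2550 bases long, with 852, 2314 and 960. The strongest on chromosome 2, from 132447631 to 132450250, was similar at 2620 bases, with 403, 973 and 467. In each, the 3 libraries placed the summit within 2 bases, at 540, 468, 488 and 508 bases from the nearer end. On chromosome 14 from 19915058 and on chromosome 22 that end was the start of the region, and in the other 2 it was the end. These 4 were picked from 7 odd-only regions longer than 2000 bases with a mean percentile above 99. Another of the 7, on chromosome 7 from 157896509 to 157899125, was also 2617 bases long, with its summit 539 bases from the nearer end. Its pileups were 292, 559 and 332 and its summits lay within 34 bases. Regions of 6869 bases on chromosome 4 and 2226 bases on chromosome 7 had the summit 3073 and 1078 bases from the nearer end. Whether any of these regions share sequence was not tested. How reads that align to several places were handled is not stated, and pileups in repeated sequence are uncertain to that extent.

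Of the 5 longest odd-only regions, 1 was among the 520 strongest. This region, on chromosome 4 from 189424108 to 189430976, spanned 6869 bases, with pileups of 280, 489 and 351 and summits within 5 bases. Next came chromosome 4 from 555520 to 559977 (4458 bases), with pileups of 130, 196 and 184, and chromosome 7 from 1040268 to 1043929 (3662 bases), with 108, 242 and 108. In the last of these, the summits of replicate 1 and replicate 3 lay 1736 bases apart, the largest spread of all odd-only regions. Chromosome 10 from 13513581 to 13517238 (3658 bases) had pileups of 54, 138 and 73, and chromosome 5 from 897256 to 900629 (3374 bases) had 99, 190 and 120.

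The strongest region of each of the 23 chromosomes gave a more uniform picture. Of these 23, 14 were 800 to 1000 bases long, and the median was 943. In 19 of them the mean percentile of fold was above 99, and the summits of the 3 libraries were at most 79 bases apart. Pileup was highest in odd replicate 2 in all 23 and lowest in replicate 1 in 21. Examples are chromosome 9 from 130592865 to 130593811, with pileups of 359, 809 and 493, chromosome 11 from 133934746 to 133935641, with 426, 957 and 510, and chromosome 19 from 31732962 to 31734124, with 340, 800 and 447. On chromosome 7, from 61794293 to 61794794, pileups of 339, 676 and 464 came with folds of 4.36, 7.53 and 8.92. The weakest of these leaders was on the X chromosome, from 100375762 to 100376691, with pileups of 217, 598 and 213, and ranked 368 of all.

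A set of 520 regions made up the top 1% by pileup. Their median pileups were 231, 551.5 and 275 in odd replicates 1, 2 and 3 and their median length was 904 bases. Chromosome 1 held 50 of them (9.62%, against 8.60% of all odd-only regions) and chromosome 2 held 41 (7.88% against 8.76%). Chromosome 10 held 40 (7.69% against 5.14%), chromosome 9 held 9 (1.73% against 3.90%), chromosome 4 held 7 (1.35% against 4.86%) and the X chromosome 1 (0.192% against 3.11%). Of 299 regions in the top 1% of their list in all 3 libraries, 2 had a fold below the list's median in all 3, those on chromosome 16 from 46399087 and on chromosome 7 from 61794293 given above.

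At the edge of the rule, the weakest odd-only regions had pileups near the lowest that the lists hold. On chromosome 5 from 10861649 to 10862154 and on chromosome 7 from 65950647 to 65951035 they were 8, 10 and 5, and on the X chromosome from 78614269 to 78614693 they were 9, 9 and 5. Their summits were 215 to 245 bases apart. Just outside it stood 2076 regions with 3 odd lists and a peak in a single other list. The strongest of them, on chromosome 14 from 19931670 to 19932646, had odd pileups of 983, 2543 and 985 and missed the rule by a peak of pileup 18 in even replicate 3. On chromosome 2 from 240778144 to 240779798 odd pileups of 423, 905 and 449 stood beside one of 10 in even replicate 3, and on chromosome 17 from 26760730 to 26761638 pileups of 366, 822 and 468 beside one of 19 in even replicate 2. The median of the mean percentile was 65.5 among the odd-only regions and 73.0 just outside the rule.

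Odd-only regions were spread over all 23 chromosomes. Neighbours were separated by a median of 35384 bases and a mean of 56149. The middle 80% of gaps lay between 5164 and 126436 bases. For even-only regions the median was 29844 bases and for lacZ-only regions 90089, in the order of their numbers. Another odd-only region lay within 1 kb of 1744 regions (3.35%), within 5 kb of 9519 (18.3%) and within 10 kb of 17131 (33.0%).

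Runs of regions at most 5 kb apart were short. Singles made up 42470 regions, and 4014 pairs, 419 runs of 3 and 53 runs of 4 held most of the rest. Only 4 runs had more. On chromosome 11 from 62287942 to 62300082, 6 regions of 497 to 1143 bases stood within 12141 bases, with pileups of 39 to 71, 51 to 147 and 35 to 70 in odd replicates 1, 2 and 3. On chromosome 19 from 49536064 to 49551943, 6 regions stood within 15880 bases, with pileups of 25 to 112, 65 to 202 and 26 to 120. Runs of 5 lay on chromosome 20 from 13268643 to 13281652 and on chromosome 22 from 32924830 to 32938685, and the tightest run of 4 on chromosome 19 from 5290570 to 5295200, in 4631 bases. None of these runs held one of the 12 strongest regions.

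Density was taken as odd-only regions per Mb of the stretch up to the last peak of a chromosome. It was 17.1 over all chromosomes, against 20.4 for even-only and 6.97 for lacZ-only regions. Chromosome 20 was highest, with 1457 regions or 23.1 per Mb, followed by chromosome 17 at 21.2 and chromosome 19 at 21.1. The X chromosome was lowest, with 1618 regions or 10.4 per Mb, and chromosome 4 next, with 13.2. Even-only regions had the same extremes, with 26.4 regions per Mb on chromosome 20 and 12.6 on the X chromosome. For lacZ-only regions chromosome 20 stood at 8.64, just below chromosome 12 at 8.73, and the X chromosome at 4.19. The odd density was below the even density and above the lacZ density on all 23 chromosomes. Odd over even ran from 0.793 on chromosome 3 to 0.950 on chromosome 21.

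**Figure D4:**
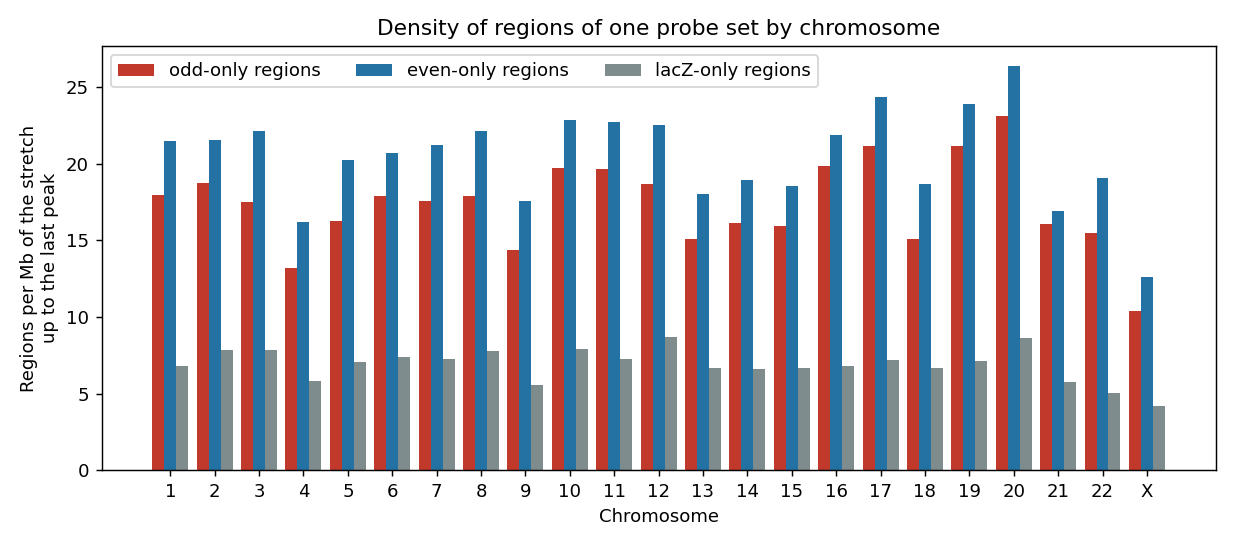
Odd-only, even-only and lacZ-only regions per Mb (vertical axis) on each chromosome, over the stretch up to its last peak. The odd-only bars reach 23.1 per Mb on chromosome 20 and are lowest at 10.4 on the X chromosome, and on every chromosome they stand below the even-only and above the lacZ-only bar.

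Copy number and mappable length of the chromosomes were not available here, so their part in these densities was not tested. The share of all merged regions that were odd-only varied less between chromosomes, from 13.2% on the X chromosome to 16.2% on chromosome 21. Odd-only regions on the X chromosome were also weaker, with a median of the mean percentile of 56.8, against 70.4 on chromosome 19 and 69.5 on chromosome 20.

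In windows of 1 Mb, 2888 of which held a merged region, the number of odd-only regions had a median of 18, with the middle 80% of windows between 10 and 27. The densest 289 windows held 16.8% of the odd-only regions. For even-only regions the median was 21 and the share 15.9%, and for lacZ-only regions 7 and 18.2%. The variance of the count over windows was 2.41 times its mean for odd-only, 2.33 times for even-only and 1.40 times for lacZ-only regions.

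**Figure D5:**
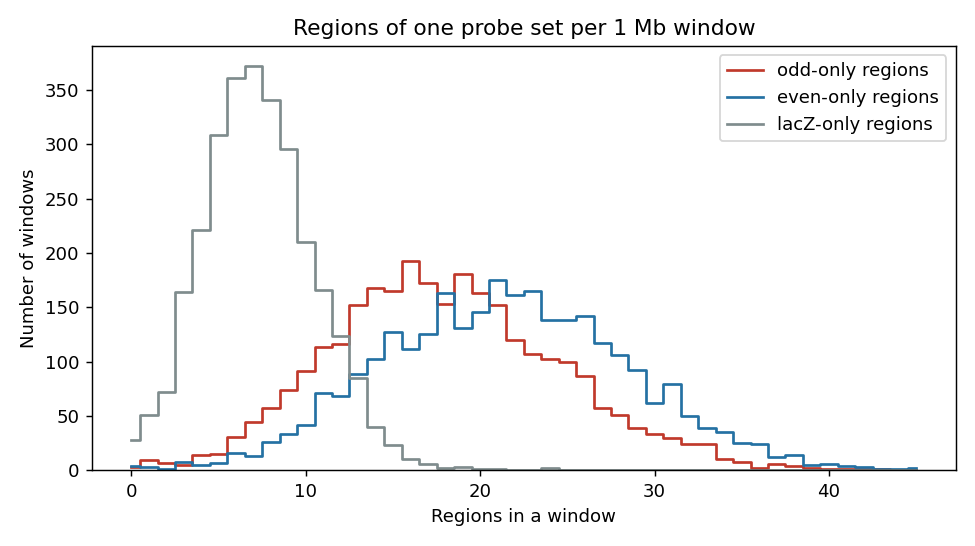
Number of 1 Mb windows (vertical axis) by the number of odd-only, even-only or lacZ-only regions they hold (horizontal axis). The odd-only counts have a median of 18, the even-only counts of 21 and the lacZ-only counts of 7, and no window exceeds 43 odd-only regions.

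The densest window lay on chromosome 19 from 49000001 to 50000000, with 43 odd-only, 28 even-only and 3 lacZ-only regions. It held 49, 68 and 73 peaks of odd replicates 1, 2 and 3, 35 to 41 peaks of an even list and 4 to 31 of a lacZ list, and it includes the run of 6 regions from 49536064. On chromosome 21 from 43000001 to 44000000 there were 42 odd-only, 28 even-only and 14 lacZ-only regions, and on chromosome 11 from 44000001 to 45000000 41, 29 and 6. Chromosome 16 from 27000001 to 28000000 had 40, 33 and 6. Of the last 2 named windows, that on chromosome 10 from 121000001 to 122000000 held 39 odd-only, 31 even-only and 11 lacZ-only regions, and that on chromosome 4 from 7000001 to 8000000 held 39, 20 and 4. In all 6, odd-only regions outnumbered even-only ones, the reverse of the whole genome; the windows were picked for their odd-only count, so this is a description.

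Between odd-only regions there were 21 stretches longer than 1 Mb, on 19 chromosomes, of which 16 were between 3 and 4 Mb long. Such stretches were not particular to this set, with 21 between even-only and 58 between lacZ-only regions. The longest between odd-only regions was on chromosome 1 from 121352406 to 142559952, where all 9 lists together held 10 peaks. On chromosome 9 there were 2, one from 46866094 to 65519667 and a shorter one of 2.29 Mb from 21120709 to 23408847. In the shorter one the odd lists had 0, 1 and 1 peaks, the even lists 2, 1 and 5 and the lacZ lists 4, 7 and 0. Within it, the window from 22000001 to 23000000 held a single peak of all 9 lists, in even replicate 3, and it is 1 of 3 windows with no odd-only region. Peaks were few in this stretch in all 3 sets.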

How the data were processed

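Peak lists from 9 ChIRP-seq samples, 3 per probe set (odd, even, lacZ), were analysed. Reads were handled with FastQC and Bowtie2 on the build hg19, per the submitters' processing notes, without versions; the peak caller, its control and its settings were not given in the sources used here. Column names, per the file headers, are those that MACS2 writes. Each sample has its own deposited list. The deposited pileup is a signal, in whole numbers with no scaling stated; the deposited fold enrichment is a ratio over a background; the deposited significance is −log10 of the p-value and of the q-value. Positions count from 1.

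Lists were merged and ranked with Python 3.11.15 and pandas 2.3.3; merging and rule were tested on simulated data. A region's value in a list is its strongest peak by pileup. A window takes a region by its midpoint. Named are the 12 strongest regions, the strongest per chromosome, the 5 longest, the 6 densest windows, the 5 longest runs and 3 regions on either side of the rule's edge. Members and rules were chosen with earlier results of these data known. The third region by percentile of fold, the resemblance of 4 long regions, the long stretches without an odd-only region and the 2 regions of low fold were picked after their values were seen. Depth is unknown, so no counting interval was computed for pileups. For the share in the densest windows, a 95% Wilson interval of 16.5% to 17.2% served only to judge whether an alternative moved it. That interval treats the regions as independent and does not measure the spread between libraries. No test was run, since the same contrast chose the regions. Alternatives changed list strength and length, merging, presence, sequences, windows, ranking and replicates.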

Additional observations from a re-analysis of the deposited data

Results flagged for a closer look

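By the same rule, 129 odd-only regions lay outside chromosomes 1 to 22 and X, on sequences that took no part in the comparisons above, against 230 even-only and 48 lacZ-only regions there. They were picked out because they exceed the number in the lacZ control. They make up 10.4% of the 1242 merged regions on those sequences, against 14.5% on the main chromosomes. For even-only regions these shares were 18.5% and 17.3%, and for lacZ-only regions 3.86% and 5.91%. Odd-only regions also outnumbered lacZ-only ones on the main chromosomes, at 51989 against 21146, so the excess is not particular to these sequences. Of the 129, the 2 highest by pileup in odd replicate 1 lay on mitochondrial DNA, where no even-only or lacZ-only region lay. The one from 6909 to 7817 had pileups of 9509, 12681 and 10041 in odd replicates 1, 2 and 3, close to those of the strongest region on chromosome 16, with folds of 14.1, 19.3 and 20.3. The other, from 3892 to 4291, had pileups of 1351, 1728 and 2395 with low folds of 2.41, 3.31 and 5.60. The region on chr17_gl000205_random from 78405 to 79843 had pileups of 476, 1150 and 538 and folds of 66.3, 185 and 125. No cause was tested.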

How the results depend on the processing

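All alternatives were planned. The odd-only count stayed within 1.5 times the reported 51989 with peaks merged over 500 bases, presence by coverage, all sequences or lacZ unused. Also within that limit, it was 51998 to 77810 without single lists or without the odd, even and lacZ lists of 1 number together. The highest value came without all 3 lists of number 1, and without odd replicate 1 alone it was 77291. Where an odd list was left out, the rule asked for 2 odd lists instead of 3, which raises the count by construction. The count was 29428 when each list kept its upper 50% by fold and 19186 with lists of equal length (26460 peaks). With at least 2 of 3 odd lists it was 82075. Stricter or shorter lists hold fewer peaks by construction. In those first 2 settings the median length was 681 and 740 bases, the gap 63226 and 98329 bases, the summit spread 40 bases in both, and the share in the densest 10% of windows 17.5% and 18.7%. That share was also 17.3% with all sequences, 18.5% in windows of 500 kb and 15.2% in windows of 5 Mb. The gap was 39325 bases with peaks merged over 500 bases and 35872 with presence by coverage. Without single lists, or without the 3 lists of 1 number, the length ran from 487 to 583 bases and the gap from 23523 to 35381. The summit spread ran from 24 to 43 (from 2 odd lists where an odd list was left out) and the window share from 15.9% to 16.9%. The median percentile (59.0 to 67.7) and the share found again (84.9% to 91.0%) moved by less than the spread between lists in all alternatives run. Ranked by fold, 11 of the 12 strongest regions moved in percentile by more than the SD of their 3 pileup percentiles. Some of these moves were very small, since 5 of the 12 stayed above percentile 99. The other 7 fell below 90, down to 5.48 for the region on chromosome 16 from 46399087. Otherwise the cause was not tested. No paired analysis was possible because the results come from no test. The labels number the samples of each set 1 to 3, and the lists were set side by side without pairing. The shared number was used only in the alternatives that left out the odd, even and lacZ lists of 1 number together.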
